A study of Drosophila melanogaster with 4 samples.

Results

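LINE-like and DNA transposon insertions are the copies of mobile elements that the annotation of the *Drosophila melanogaster* genome lists one by one, each with its own FlyBase identifier and position. Members were the rows whose identifier starts with FBti and whose symbol before the braces names one of 27 LINE-like or 16 DNA families, with 10 or more counts summed over the 4 libraries. This gave 787 members, 445 LINE-like and 342 DNA, out of 1696 annotated insertions of these families, 5416 insertions of any kind and 23932 features in all. Several listed families carry a short symbol in the annotation (F for F-element, I for I-element, H for H-element, which is counted with hobo), and these short symbols were included. With the symbols matched to the letter there were 627 members.

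The *orb2* RNAi brains expressed a hairpin against *orb2*, an RNA-binding protein gene, and the control brains a hairpin against *white* (*w*), an eye color gene. Both hairpins were driven by *insc*-GAL4, which is active throughout the neuroblast lineages, while whole brains of wandering larvae of the last instar (WL3) were sequenced, so untargeted cells are in every library. Each genotype had 2 libraries of polyadenylated RNA, and each library was a pool of 60 brains dissected in batches of 20. The genotypes differ in the hairpin and in whatever else the parental stocks carry, insertion sites included, and these cannot be told apart here.

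Library totals were 75412298 and 55826327 counts in the libraries labelled *orb2* RNAi (the *orb2*-labelled libraries) and 61433043 and 34610836 counts in those labelled *white* RNAi (the *white*-labelled libraries), and values are CPM, which are counts relative to library size after TMM scaling, always given as replicate 1 and then replicate 2. The targeted gene went against the labels: *orb2* (FBgn0264307) stood at 106 and 53.5 CPM in the *orb2*-labelled libraries, against 17.2 and 15.2 CPM in the *white*-labelled libraries. *w* stood at 121 and 93.7 CPM in the *orb2*-labelled libraries, against 111 and 183 CPM in the *white*-labelled libraries. Every direction given below is therefore a direction between labels. Brain markers were present in every library: *elav*, which marks neurons, at 408 and 306 against 462 and 210 CPM, *repo*, which marks glia, at 100 and 104 against 86.2 and 94.5 CPM, and *dpn*, which marks neuroblasts, at 13.2 and 9.66 against 11.0 and 11.4 CPM in the same order of labels. In such bulk samples, fewer cells of a type and less RNA per cell cannot be told apart.

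LINE-like elements move through an RNA copy that a reverse transcriptase writes back into the genome, often stopping early, so that many copies are truncated. DNA transposons are cut out and reinserted by a transposase, and many of their copies have lost that gene. Small RNA pathways hold both kinds in check, the piRNA pathway mainly in gonads and the siRNA pathway in somatic tissue, together with repressive chromatin. HeT-A and TART are LINE-like elements with a duty of their own: flies lack telomerase, and these elements lengthen chromosome ends by transposing onto them.

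The members were a small and unevenly read part of the libraries. They held 0.238% and 0.197% of all counts in the *orb2*-labelled libraries, against 0.252% and 0.334% in the *white*-labelled libraries. Their summed counts ran from 10 to 29935 with a median of 125, and 351 members had fewer than 100 counts while 125 had 1000 or more. Of the 787, 408 lay in an intron, 43 shared at least 1 base with an exon and 336 lay between genes. A further 699 insertions of these families had 0 counts in every library and 210 had 1 to 9 counts.

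Copies of like length had close counts in some families and not in others. The 17 hobo copies of 1406 bases, on 4 chromosome arms, ran from 3.43 to 5.01 CPM and from 2.95 to 5.94 CPM in the *orb2*-labelled libraries, against 4.86 to 6.92 CPM and 2.57 to 4.83 CPM in the *white*-labelled libraries. The 9 I-element copies of 5133 to 5372 bases ran from 12.3 to 17.2 CPM and from 6.97 to 10.4 CPM in the *orb2*-labelled libraries, against 13.4 to 19.0 CPM and 7.86 to 12.1 CPM in the *white*-labelled libraries. The 6 long Juan copies ran from 1.56 to 3.18 CPM and from 2.22 to 3.56 CPM in the *orb2*-labelled libraries, against 3.80 to 5.79 CPM and 1.45 to 3.11 CPM in the *white*-labelled libraries. Within each of these sets and libraries the highest copy had about 2 times the CPM of the lowest or less. Other families spread far more: in replicate 1 labelled *orb2* RNAi, 13 long jockey copies ran from 0.277 to 10.7 CPM, 29 Doc copies from 3.83 to 73.0 CPM, 16 F-element copies from 1.93 to 15.0 CPM and 6 HeT-A copies from 2.22 to 87.2 CPM. The I-element is the transposon behind one form of hybrid dysgenesis, the partial sterility of crosses between strains with and without active copies. How reads with several alignments were counted is not given in the sources used here, so counts of near-identical copies are uncertain as values of one site, and such copies are not independent of each other.

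edgeR's quasi-likelihood test called 0 of the 787 members at an adjusted p (Benjamini-Hochberg) below 0.05 and beyond 0.5 in absolute log2 fold change, as it called 0 of all 15437 features tested (0%). At an unadjusted p under 0.05, 19 members stood higher under the *orb2* RNAi label, where 2.38% of all features were, and 23 were lower, where 0.777% of all features were. By DESeq2 without shrinkage, 5 members were called higher and 8 were called lower, against 0.512% and 0.168% of all features in those directions. The groups did not overlap, with *orb2* RNAi the higher, for 137 members, a share of 17.4% where 20.9% of all features did so, and with *orb2* RNAi the lower for 133 members, a share of 16.9% where 10.03% of all features did so.

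The classes differed mainly in the share of members below. Of the 445 LINE-like members, 72 (16.2%) were above without overlap and 104 (23.4%) below, where 20.9% and 10.03% of all features were. At the unadjusted threshold 9 (2.02%) passed higher and 21 (4.72%) lower, where 2.38% and 0.777% of all features did. Their median log2 fold change was -0.14. Of the 342 DNA members, 65 (19.0%) were above and 29 (8.48%) below, and 10 (2.92%) and 2 (0.585%) passed. These DNA shares lay near those of all features, and the DNA median log2 fold change was 0.08. The median over all features tested was 0.05. The difference between the classes was not tested, since copies of a family are not independent. These counts and medians turned on single libraries. Members higher at an unadjusted p under 0.05 numbered 5 without replicate 1 and 5 without replicate 2 labelled *orb2* RNAi, 94 without replicate 1 labelled *white* RNAi and 33 without replicate 2 with that label, and members lower numbered 67 without replicate 1 labelled *white* RNAi. The LINE-like median was 0.30 without replicate 1 labelled *white* RNAi, and the DNA median was -0.18 without replicate 1 labelled *orb2* RNAi.

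**Figure D1:**
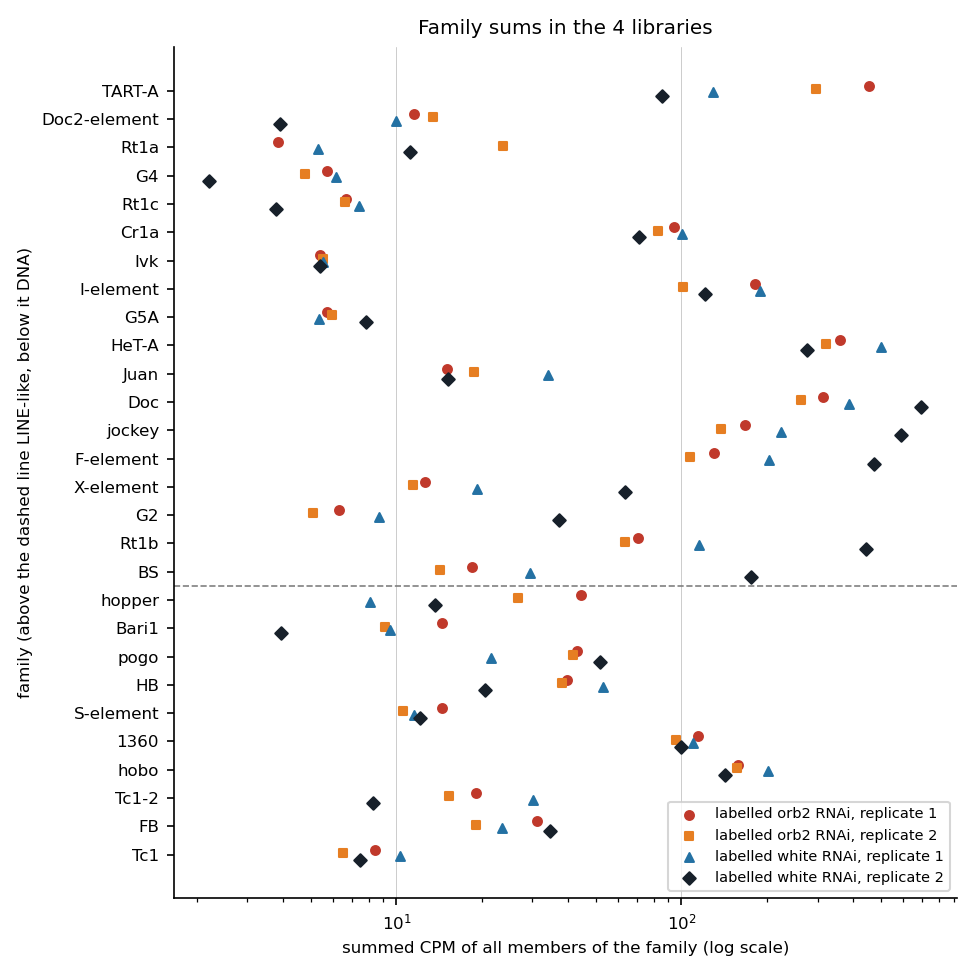
Summed CPM of all members of each family with 1000 or more summed counts (x axis, log scale) in the 4 libraries (one marker per library), LINE-like families above the dashed line and DNA families below it, each class ordered by the ratio of the libraries labelled *orb2* RNAi to those labelled *white* RNAi. TART-A, hopper and, by less, Doc2-element (11.5 and 13.5 against 9.94 and 3.90 CPM) have both *orb2*-labelled libraries on the right. For BS, Rt1b, G2, X-element, F-element, jockey and Doc the second library labelled *white* RNAi stands to the right of the other 3.

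TART-A, one of the telomeric elements, was higher in both *orb2*-labelled libraries. The 6 members of the family summed to 455 and 295 CPM in the *orb2*-labelled libraries, against 129 and 85.1 CPM in the *white*-labelled libraries, a 3.51-fold ratio of means. Nearly all of this came from a pair of long copies next to each other on chromosome 4, in the telomeric array beyond *Cadps*, the nearest annotated gene. TART-A{}6261 (1320141 to 1332489, minus strand, 12349 bases) was counted at 223 and 142 CPM in the *orb2*-labelled libraries, against 60.0 and 35.2 CPM in the *white*-labelled libraries. TART-A{}6259 (1333119 to 1345424, minus strand, 12306 bases) was counted at 223 and 142 CPM in the *orb2*-labelled libraries, against 58.9 and 36.5 CPM in the *white*-labelled libraries. The groups did not overlap in either copy, and the lowest library labelled *orb2* RNAi was more than 2 times the highest labelled *white* RNAi. The log2 fold changes were 1.94 ± 0.38 and 1.94 ± 0.37 (standard error, n = 2 against 2), with an edgeR adjusted p of 0.966 for both and a DESeq2 adjusted p of 0.00142 and 7.29e-04. Over the alternatives the adjusted p of TART-A{}6261 ran from 1.45e-07 to 1.00 and its log2 fold change from 1.33 to 2.37. Since the copies have almost the same count in every library, they are 1 observation rather than 2.

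The shorter TART-A copies were mixed. TART-A{}6260, TART-A{}6258 and TART-A{}5661 had 8 to 35 counts in each library labelled *orb2* RNAi and at most 4 in each labelled *white* RNAi, while TART-A{}4601, a piece of 309 bases at the proximal end of the same array, had 7.89 and 10.3 CPM in the *orb2*-labelled libraries, against 9.49 and 13.4 CPM in the *white*-labelled libraries.

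HeT-A, the other telomeric family among those listed, lay in the same arrays without following TART-A. Its 19 members, all between genes near the ends of chromosomes 4 and X, summed to 359 and 323 CPM in the *orb2*-labelled libraries, against 501 and 276 CPM in the *white*-labelled libraries, and these ranges overlap. The copy with the most counts, HeT-A{}6262 (chromosome 4, 1314342 to 1320140), directly adjoins TART-A{}6261 and had 71.4 and 85.0 CPM in the *orb2*-labelled libraries, against 130 and 60.8 CPM in the *white*-labelled libraries. HeT-A{}6268 (chromosome 4, 1301834 to 1307750) had 87.2 and 55.5 CPM in the *orb2*-labelled libraries, against 137 and 56.5 CPM in the *white*-labelled libraries. HeT-A{}6276 (chromosome 4, 1282540 to 1288109) had 42.9 and 25.6 CPM in the *orb2*-labelled libraries, against 47.7 and 25.7 CPM in the *white*-labelled libraries. In all of these 3 copies the groups overlap, and their log2 fold changes of -0.29 ± 0.40, -0.44 ± 0.49 and -0.10 ± 0.42 (standard error) lie within their errors and turn positive without replicate 1 labelled *white* RNAi.

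Within HeT-A, 3 members lay above without overlap, 4 below, and 12 overlapped, where 20.9% of all features were above and 10.03% below. The 3 above were HeT-A{}6278, HeT-A{}6270 and HeT-A{}4795, with log2 fold changes of 1.03, 1.04 and 0.94. The most counted of these, HeT-A{}6278 (chromosome 4, 1278430 to 1281474), had 17.2 and 28.8 CPM in the *orb2*-labelled libraries, against 11.3 and 11.2 CPM in the *white*-labelled libraries. Per kilobase of insertion, HeT-A{}6262 stood at 12.3 and 14.7 CPM in the *orb2*-labelled libraries, against 22.4 and 10.5 CPM in the *white*-labelled libraries, and TART-A{}6261 at 18.1 and 11.5 CPM against 4.86 and 2.85 CPM in the same order. On this scale TART-A{}6261 lay above its neighbor in replicate 1 and below it in replicate 2 labelled *orb2* RNAi, and below it in both *white*-labelled libraries.

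**Figure D2:**
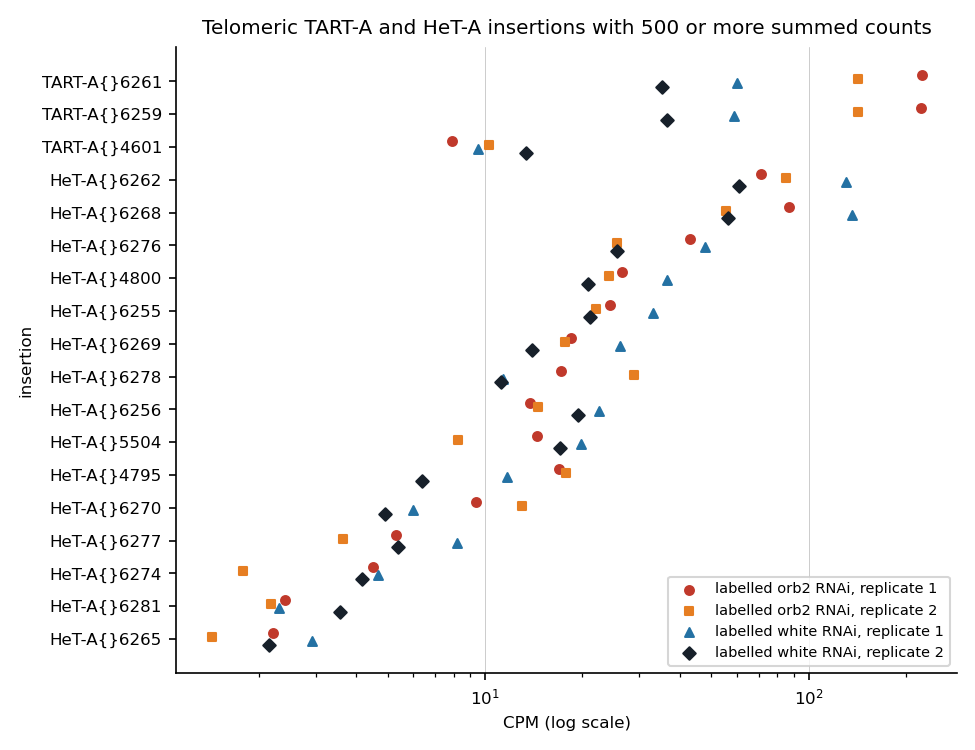
CPM (x axis, log scale) of each TART-A and HeT-A insertion with 500 or more summed counts, one marker per library. For TART-A{}6261 and TART-A{}6259 both libraries labelled *orb2* RNAi (223 and 142 CPM) stand apart from both labelled *white* RNAi (at most 60.0 CPM), while most HeT-A insertions overlap, with replicate 1 labelled *white* RNAi often on the right.

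Genes that cap telomeres gave no call. In so short a list this says little, since edgeR called 0 of all 15437 features and DESeq2 0.512% higher and 0.168% lower. Without overlap, 20.9% of all features were above and 10.03% below. Of 8 tested genes of the capping list, 0 passed the unadjusted threshold and 0 were called by edgeR or DESeq2, with 0 above without overlap and 2 below (*ver* and *HipHop*) and a median log2 fold change of -0.10. *cav*, which encodes the capping protein HOAP, had 25.6 and 28.4 CPM in the *orb2*-labelled libraries, against 24.5 and 35.9 CPM in the *white*-labelled libraries. *Su(var)205*, which encodes HP1, had 524 and 538 CPM in the *orb2*-labelled libraries, against 475 and 779 CPM in the *white*-labelled libraries.

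The DNA transposon hopper had the largest differences among members with counts in every library. Its 11 members summed to 44.5 and 26.6 CPM in the *orb2*-labelled libraries, against 8.11 and 13.6 CPM in the *white*-labelled libraries, a 3.27-fold ratio of means. hopper{}1210 (chromosome 3R, 4759778 to 4761207, plus strand, in an intron of *atms* on the same strand) had 535 and 287 counts in the *orb2*-labelled libraries, against 12 and 4 counts in the *white*-labelled libraries, or 7.07 and 5.01 CPM against 0.192 and 0.121 CPM. hopper{}1438 (chromosome 3R, 27856815 to 27858239, minus strand, in an intron of *CG34353* on the same strand) had 561 and 249 counts in the *orb2*-labelled libraries, against 15 and 2 counts in the *white*-labelled libraries. Both copies are read strongly under one label and barely under the other. Their log2 fold changes were 5.23 ± 0.74 and 5.22 ± 0.98 (standard error), with an edgeR adjusted p of 0.966 for both and a DESeq2 adjusted p of 8.25e-08 and 1.72e-05. Over the alternatives the adjusted p of hopper{}1210 ran from 8.25e-08 to 1.00 and its log2 fold change from 1.79, with the DESeq2 prior, to 5.62.

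The genes holding these copies overlapped between the labels. *atms*, which encodes a subunit of the Paf1 transcription elongation complex, had 89.5 and 94.3 CPM in the *orb2*-labelled libraries, against 85.8 and 103 CPM in the *white*-labelled libraries, with a log2 fold change of -0.03. *CG34353* had 86.5 and 65.4 CPM in the *orb2*-labelled libraries, against 113 and 56.4 CPM in the *white*-labelled libraries, and these overlap.

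Across the family, 8 of 11 hopper members were above without overlap, 2 were below and 1 overlapped. Of all features, 20.9% were above and 10.03% below. The 8 above were 1346 to 1437 bases long and lay on 4 chromosome arms, 6 of them in introns and 2 between genes, and 6 of the 19 members higher at an unadjusted p under 0.05 were hopper. The exceptions, named after their values were seen, were the short hopper{}205 (528 bases, X), at 0.938 and 0.524 CPM in the *orb2*-labelled libraries, against 1.22 and 6.47 CPM in the *white*-labelled libraries, hopper{}634, which was also highest in replicate 2 labelled *white* RNAi, and hopper{}4172, which overlapped.

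**Figure D3:**
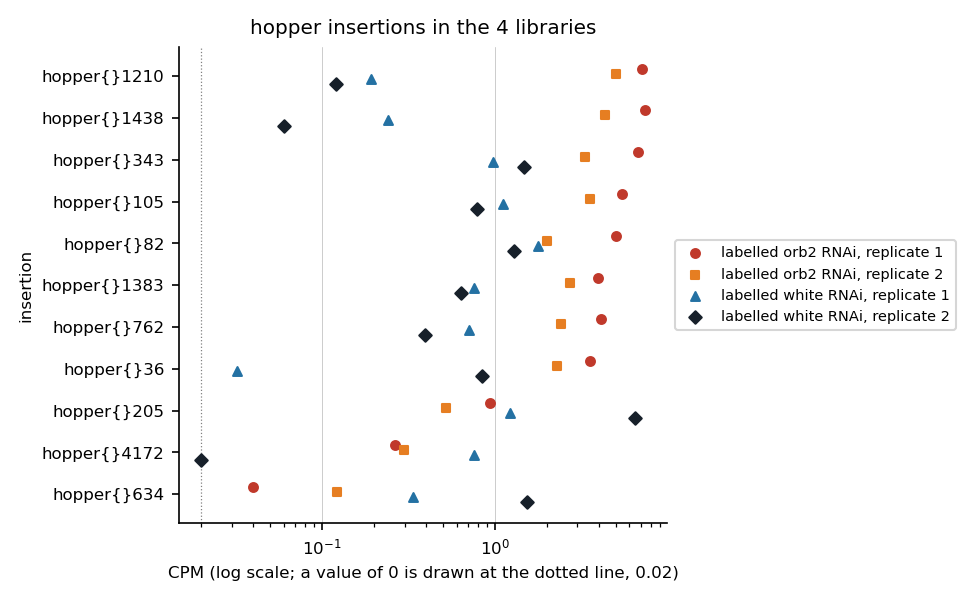
CPM (x axis, log scale) of the 11 hopper insertions, ordered by summed counts, one marker per library; the value of 0 of hopper{}4172 is drawn at the dotted line. In the upper 8 insertions both libraries labelled *orb2* RNAi stand to the right of both labelled *white* RNAi, by the widest distance in hopper{}1210 and hopper{}1438.

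Some insertions were read under one label only. Of the 787 members, 78 (9.91%) had 0 counts in both *white*-labelled libraries, where 9.85% of all features tested did, and 15 (1.91%) had 0 counts in both *orb2*-labelled libraries, where 1.68% of all features did. A further 117 members (14.9%) were at 0 in replicate 2 labelled *white* RNAi alone, the library with the fewest counts, where 8.20% of all features were. The largest of the 78 was FB{}4676, a piece of 199 bases of a foldback element on chromosome 3R (4201196 to 4201394, minus strand) in an intron of *beta-Man*, a lysosomal beta-mannosidase gene on the opposite strand. It had 120 and 54 counts in the *orb2*-labelled libraries, against 0 and 0 counts in the *white*-labelled libraries, at least 41.7-fold higher with the *white*-labelled libraries set at a floor of 3 counts over the group. *beta-Man* had 112 and 117 CPM in the *orb2*-labelled libraries, against 103 and 74.9 CPM in the *white*-labelled libraries. The edgeR adjusted p of FB{}4676 was 0.966 and its DESeq2 adjusted p 0.0284, the lowest of its alternatives, which reached 1.00. Of the other 77, 12 had 40 or more counts, the largest of them X{}4193 with 92, and their lower bounds, as of every one of the 78, rest on the same floor. NOF, which encodes the proteins thought to move foldback elements, had 1 member of 16462 bases with 16 and 4 counts in the *orb2*-labelled libraries, against 0 and 0 counts in the *white*-labelled libraries.

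Some markers of other tissues differed between the labels, and no list was tested as a group. Of the 8 muscle markers, 6 were above without overlap, 4 passed the unadjusted threshold higher and DESeq2 called 3. Their summed level was 1223 and 1095 CPM in the *orb2*-labelled libraries, against 632 and 856 CPM in the *white*-labelled libraries. *Tm1* was the largest part of each sum and overlapped between the labels, at 635 and 556 against 506 and 581 CPM in the same order. Of the 6 salivary gland markers, 3 passed higher and DESeq2 called 2. Their summed level was 127 and 1303 CPM in the *orb2*-labelled libraries, against 37.2 and 160 CPM in the *white*-labelled libraries, and these sums overlap. Of the 8 imaginal disc markers, 1 passed higher and DESeq2 called 0. In the neuroblast, neuron, glia, fat body, hemocyte, ring gland and germline lists, 0 genes passed in either direction and DESeq2 called 0. Without overlap, 3 of 6 hemocyte markers were above and 0 below, and 0 of 5 tested ring gland markers were above and 3 below. Over all features, 20.9% were above and 10.03% below. Of the 9 germline and gonad markers in the files, *osk* had 0 counts in every library and *vas* reached at most 1.94 CPM. Their summed level was 86.6 and 85.5 CPM in the *orb2*-labelled libraries, against 72.3 and 63.0 CPM in the *white*-labelled libraries. *ovo* was the largest part of this sum in every library, at 48.6 and 56.9 against 41.5 and 24.2 CPM in the same order. Of the 8 tested markers of this list, 3 were above without overlap and 2 below. The part of these tissues in the TART-A and hopper values was not tested.

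Most of the lower members were high in a single library. Of the 23 members lower at an unadjusted p under 0.05, 22 were more than 2 times as high in replicate 2 labelled *white* RNAi as in any of the other 3 libraries, 21 were LINE-like, and they came from 9 families. The same held for all of the 8 members DESeq2 called lower. Over all members, 109 (13.9%) were more than 2 times as high in that library as in each of the others, where 7.26% of all features were, 8.11% of insertions of INE-1, a short and very numerous element, and 5.52% of the remaining insertions. That library has the fewest counts. The 109, a set chosen on these values and so given no test, were 68 LINE-like and 41 DNA members, and they held 2121 of the 3492 CPM that all members had there, against 420 of 2480 CPM in replicate 1 with the same label. Fat body markers summed to 547 and 2565 CPM in the *orb2*-labelled libraries, against 4348 and 267 CPM in the *white*-labelled libraries, and ring gland markers to 415 and 416 CPM against 491 and 666 CPM in the same order. The part of these tissues in the values was not tested.

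Rt1b{}990 led this set (chromosome 3L, 13574910 to 13580104, plus strand, 5195 bases). It was counted at 38.8 and 27.8 CPM in the *orb2*-labelled libraries, against 74.3 and 418 CPM in the *white*-labelled libraries. It lies in an intron of *bru3*, a gene for an RNA-binding protein of the Bruno family on the opposite strand, which had 227 and 173 CPM in the *orb2*-labelled libraries, against 250 and 206 CPM in the *white*-labelled libraries. The log2 fold change of Rt1b{}990 was -2.88 ± 0.85 (standard error), with an edgeR adjusted p of 0.966 and a DESeq2 adjusted p of 0.00781, in a range of 6.76e-09 to 1.00 over the alternatives. Without replicate 2 labelled *white* RNAi the log2 fold change was -1.16.

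Single copies of jockey, Doc and F-element, named for their small p, had the same order of libraries. Over these families, 18 of 73 jockey, 7 of 53 Doc and 9 of 47 F-element members were more than 2 times as high in replicate 2 labelled *white* RNAi as in any other library. Of all features, 7.26% were that high in this library. jockey{}118 (chromosome X, 13429519 to 13430606, plus strand, 1088 bases, between genes next to *Set2*) had 25.04 and 20.3 CPM in the *orb2*-labelled libraries, against 44.4 and 270 CPM in the *white*-labelled libraries. Doc{}1407 (chromosome 3R, 22881256 to 22884895, plus strand, 3640 bases, next to *klg*) had 28.7 and 23.0 CPM in the *orb2*-labelled libraries, against 52.1 and 271 CPM in the *white*-labelled libraries. F{}1384 (chromosome 3R, 18606587 to 18610732, minus strand, 4146 bases, in an intron of *CG14304* on the same strand) had 24.9 and 17.3 CPM in the *orb2*-labelled libraries, against 46.8 and 260 CPM in the *white*-labelled libraries. In all of them both libraries labelled *orb2* RNAi lay below replicate 1 labelled *white* RNAi, and replicate 2 with that label lay far above it.

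A further 4 named copies, some much shorter, had this order too. Doc{}2479 (chromosome 2L, 22415856 to 22420241, 4386 bases) had 13.4 and 11.8 CPM in the *orb2*-labelled libraries, against 22.0 and 120 CPM in the *white*-labelled libraries. F{}1358 (chromosome 3R, 14180867 to 14185556, 4690 bases) had 8.48 and 6.92 CPM in the *orb2*-labelled libraries, against 14.7 and 75.3 CPM in the *white*-labelled libraries. It lies in an intron of *Dop1R1*, a dopamine receptor gene on the opposite strand, at 33.6 and 31.7 CPM in the *orb2*-labelled libraries, against 42.9 and 18.2 CPM in the *white*-labelled libraries, so gene and insertion go different ways between the *white*-labelled libraries. The BS copies BS{}1416 (chromosome 3R, 24493333 to 24493483) and BS{}1233 (chromosome 3R, 6206342 to 6206493, in an intron of *Osi24*) are only 151 and 152 bases long, about the length of 1 sequenced read. BS{}1416 had 6.38 and 5.05 CPM in the *orb2*-labelled libraries, against 11.4 and 81.3 CPM in the *white*-labelled libraries. BS{}1233 had 4.60 and 3.74 CPM in the *orb2*-labelled libraries, against 8.51 and 44.0 CPM in the *white*-labelled libraries.

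The log2 fold changes of these 7 insertions were -2.79 ± 0.86 for jockey{}118, -2.64 ± 0.80 for Doc{}1407, -2.86 ± 0.84 for F{}1384, -2.49 ± 0.81 for Doc{}2479, -2.55 ± 0.80 for F{}1358, -3.02 ± 0.95 for BS{}1416 and -2.65 ± 0.82 for BS{}1233 (standard errors). Each had an edgeR adjusted p of 0.966 and a DESeq2 adjusted p between 0.0103 and 0.0498. Leaving out replicate 2 labelled *white* RNAi moved all of them to between -0.80 and -1.15.

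All of the 22 members of this set with 1000 or more counts were LINE-like, from 7 families on 5 chromosome arms and 151 to 5195 bases long. Relative to replicate 1 labelled *white* RNAi they stood at 0.522 to 0.814 times its CPM in replicate 1 labelled *orb2* RNAi and at 0.371 to 0.675 times in replicate 2 with that label, against 2.28 to 7.11 times, with a median of 5.11, in replicate 2 labelled *white* RNAi. The lower end of the last range follows from how the set was chosen. Members of the set with fewer counts spread wider, such as S{}967 at 21.7 times replicate 1 with the same label. The points share libraries and, within a family, sequence.

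**Figure D4:**
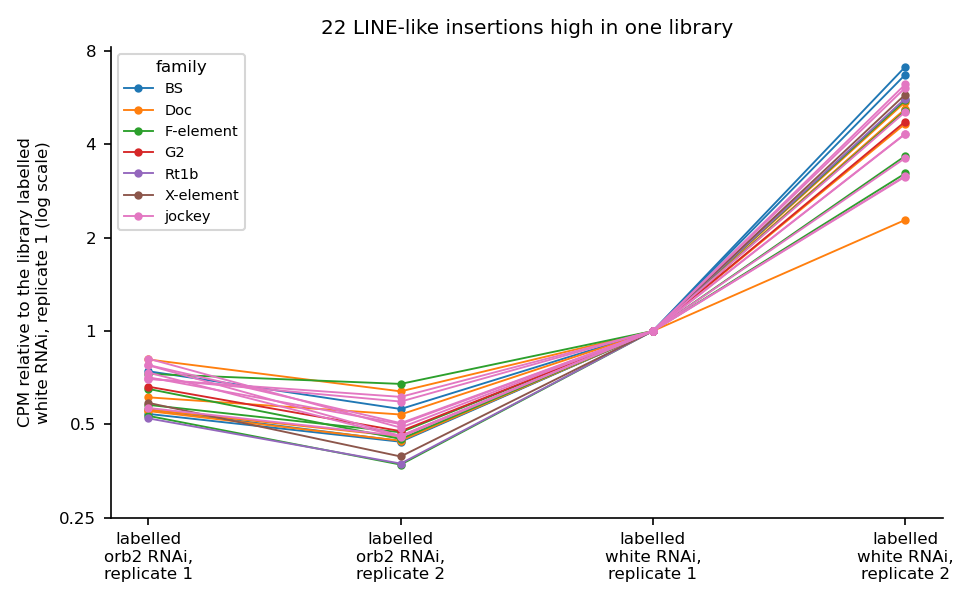
CPM of 22 LINE-like insertions (lines, colored by family) in the 4 libraries relative to replicate 1 labelled *white* RNAi (y axis, log scale), for members with 1000 or more counts that were more than 2 times as high in replicate 2 labelled *white* RNAi as in any other library. The lines lie at 0.371 to 0.814 in the *orb2*-labelled libraries and reach 2.28 to 7.11 in replicate 2 labelled *white* RNAi.

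Several LINE-like families summed to less in both *orb2*-labelled libraries, and they differed in how far this rested on their most counted copy. The 14 BS members summed to 18.4 and 14.2 CPM in the *orb2*-labelled libraries, against 29.4 and 175 CPM in the *white*-labelled libraries. The 73 jockey members summed to 167 and 138 CPM in the *orb2*-labelled libraries, against 223 and 587 CPM in the *white*-labelled libraries. The 29 Rt1b members summed to 70.4 and 63.6 CPM in the *orb2*-labelled libraries, against 116 and 445 CPM in the *white*-labelled libraries, with a log2 ratio of -2.07 that became -0.03 without Rt1b{}990, which held 74.4% of the family's counts. Doc, F-element, X-element and G2 also lay below without overlap, with log2 ratios of -0.91, -1.51, -1.79 and -2.001. Their libraries labelled *orb2* RNAi stayed below replicate 1 labelled *white* RNAi too, by log2 ratios of -0.43 for Doc, -0.77 for F-element, -0.68 for X-element and -0.60 for G2. Without the most counted copy the log2 ratio was -2.40 for BS, where it was -2.65 with all members, and -0.94 for jockey, -0.54 for Doc, -0.92 for F-element, -0.98 for X-element and -0.53 for G2. Of 41 families with a member, 7 summed to more in both *orb2*-labelled libraries than in both labelled *white* RNAi, 11 to less, 9 of these LINE-like, and 23 overlapped.

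Not every LINE-like family took part. Cr1a, with 56 members, summed to 93.8 and 82.4 CPM in the *orb2*-labelled libraries, against 100 and 70.7 CPM in the *white*-labelled libraries. The I-element, with 23 members, summed to 181 and 101 CPM in the *orb2*-labelled libraries, against 188 and 121 CPM in the *white*-labelled libraries. Juan summed to 15.1 and 18.7 CPM in the *orb2*-labelled libraries, against 34.1 and 15.1 CPM in the *white*-labelled libraries. Rt1a stood highest in replicate 2 labelled *orb2* RNAi, with 3.84 and 23.7 CPM in the *orb2*-labelled libraries, against 5.32 and 11.2 CPM in the *white*-labelled libraries. In all of these the groups overlap.

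Among the most counted LINE-like members, the Doc copy in *CHKov1* (Doc{}CHKov1[Doc1420], chromosome 3R, 25324412 to 25328927, minus strand) did not share the excess in replicate 2 labelled *white* RNAi. This insertion splits a choline kinase-like gene and has been tied to insecticide and virus resistance in wild flies. It shares 5 bases with an exon of *CHKov1* and had 73.0 and 45.8 CPM in the *orb2*-labelled libraries, against 54.6 and 28.8 CPM in the *white*-labelled libraries. The gene had the same order of libraries, at 44.5 and 25.5 CPM in the *orb2*-labelled libraries, against 36.3 and 12.8 CPM in the *white*-labelled libraries. The groups overlap in both, with log2 fold changes of 0.51 ± 0.41 for the insertion (standard error, edgeR adjusted p 0.993) and 0.51 for the gene.

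Most DNA families other than hopper overlapped between the labels. The element 1360, short and common on chromosome 4 and in heterochromatin, had 118 members. They summed to 114 and 95.8 CPM in the *orb2*-labelled libraries, against 110 and 99.4 CPM in the *white*-labelled libraries. Of these members, 16 were above without overlap and 9 below, where 20.9% and 10.03% of all features were. The 26 hobo members summed to 158 and 156 CPM in the *orb2*-labelled libraries, against 201 and 142 CPM in the *white*-labelled libraries. The most counted of them, H{}84 (chromosome X, 8293303 to 8296283, plus strand, 2981 bases), lies in an intron of *nAChRalpha3*, a nicotinic acetylcholine receptor gene on the opposite strand, and had 69.7 and 66.7 CPM in the *orb2*-labelled libraries, against 84.5 and 62.6 CPM in the *white*-labelled libraries. Its log2 fold change was -0.11 ± 0.24 (standard error), and *nAChRalpha3* itself had 22.1 and 17.4 CPM in the *orb2*-labelled libraries, against 25.8 and 14.8 CPM in the *white*-labelled libraries.

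The 38 pogo members summed to 42.9 and 41.7 CPM in the *orb2*-labelled libraries, against 21.5 and 51.9 CPM in the *white*-labelled libraries. HB summed to 39.8 and 38.0 CPM in the *orb2*-labelled libraries, against 52.9 and 20.5 CPM in the *white*-labelled libraries, and FB to 31.1 and 19.1 CPM against 23.5 and 34.7 CPM in the same order. In all of these the groups overlap. transib3, with 6 members, was the only DNA family besides hopper and NOF to lie above without overlap, at 3.34 and 2.32 CPM in the *orb2*-labelled libraries, against 1.33 and 0.454 CPM in the *white*-labelled libraries. Its most counted copy, transib3{}2949, lies in an intron of *AGO3*, a piRNA pathway Argonaute gene, which had 3.76 and 3.28 CPM in the *orb2*-labelled libraries, against 4.26 and 4.96 CPM in the *white*-labelled libraries.

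Each insertion in an intron was set beside the gene around it. Among the members in introns with 100 or more counts, 236 had a tested gene. For the 29 of them that were more than 2 times as high in replicate 2 labelled *white* RNAi as in any other library, the median log2 ratio of that library to replicate 1 with the same label was 2.13 for the insertion and -0.66 for the gene. For the other 207 it was -0.81 for the insertion and -0.58 for the gene. The 29 were chosen on the insertion values of that library and the 207 are what remained. The choice therefore shapes the insertion ratios directly, and those of the genes wherever insertion and gene counts are linked, which was not tested. Over all of these 236, the correlation of insertion and gene in this ratio was -0.12 and in the log2 fold change 0.01 (Pearson's r, a description across sites that share libraries and in part genes).

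**Figure D5:**
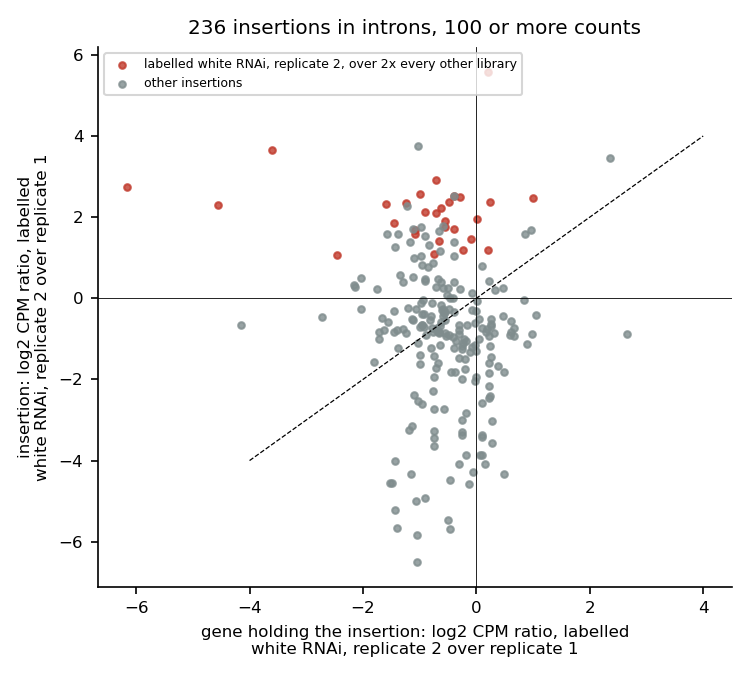
Log2 CPM ratio of replicate 2 to replicate 1 labelled *white* RNAi for 236 insertions in introns (y axis) and for the genes that hold them (x axis), one point per insertion; the dashed line marks equal ratios. The 29 insertions more than 2 times as high in replicate 2 as in any other library have a median of 2.13 while their genes have a median of -0.66. These 29 were chosen on replicate 2, so their insertion ratios are high by selection.

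Insertions in introns tended to be low in replicate 2 labelled *white* RNAi otherwise. The median log2 ratio of that library to replicate 1 with the same label was -0.51 over the 408 members in introns and -0.16 over the 336 between genes, while it was -0.97 over INE-1 insertions and 0 over all features. Chromosome 4 is small, largely heterochromatic and dense in transposons. Of its 55 members in introns, 25 (45.5%) had less than 0.5 times the CPM of each other library in replicate 2 labelled *white* RNAi. On the other chromosomes 82 of 353 did (23.2%), where 12.3% of all features did. The same share was 36.8% over INE-1 insertions and 15.1% over the remaining insertions outside the listed families. Members had a median of 125 counts, against 1993 for all features, and that library has the fewest counts. The difference between chromosomes was not tested. For the 34 on chromosome 4 with 100 or more counts and no excess in that library, the median ratio was -1.70 for the insertion and -0.39 for the gene. By strand, the medians were -0.67 for the 199 members in introns on the gene's strand and -0.29 for the 209 on the other. Counts of insertions inside genes are uncertain in any case, since the strand setting of the counting is not given in the sources used here.

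Genes that silence transposons gave no call. This says little about them, since edgeR called 0 of all 15437 features and DESeq2 0.512% higher and 0.168% lower. Over all features, 2.38% passed the unadjusted threshold higher and 0.777% lower, and 20.9% were above and 10.03% below without overlap. Of the 5 tested siRNA pathway genes, the 28 tested piRNA pathway genes and the 15 tested chromatin genes, 0 were called by edgeR or DESeq2 and 0 passed the unadjusted threshold in either direction. Without overlap, 2 siRNA genes were above and 0 below, 5 piRNA genes above and 7 below, and 3 chromatin genes above and 1 below, with median log2 fold changes of -0.04, -0.05 and 0.09. *AGO2*, the Argonaute of the siRNA pathway, had 398 and 398 CPM in the *orb2*-labelled libraries, against 372 and 302 CPM in the *white*-labelled libraries. *piwi*, the nuclear Argonaute of the piRNA pathway, had 2.14 and 2.83 CPM in the *orb2*-labelled libraries, against 2.32 and 0.906 CPM in the *white*-labelled libraries. *egg*, which encodes a histone H3 lysine 9 methyltransferase, had 109 and 104 CPM in the *orb2*-labelled libraries, against 98.0 and 89.6 CPM in the *white*-labelled libraries.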

How the data were processed

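The authors deposited 1 table of unnormalized counts for each library, made by trimming with Trim Galore, aligning with HISAT2 to BDGP6.32 (Ensembl release 105) and counting with featureCounts. Settings for strand, read pairs and reads with several alignments are not given in the sources used here. The paper names a stranded kit and the sample labels another.

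Samples were grouped by their labels. For families, positions and neighboring genes, Ensembl release 115 (BDGP6.54) was read. Features with 10 or more summed counts were tested in R 4.3.3 with edgeR 4.0.16 (TMM, quasi-likelihood test, 2 libraries against 2, no block) and with DESeq2 1.42.0. P-values measure the spread between these libraries. Other normalizations, filters, a replicate block and each library left out were tried. Both tools were also run on simulated counts with the same spread for every feature. That setting is simpler than these libraries, so it does not show how the tools perform on them. An absolute log2 fold change over 0.5 at an adjusted p below 0.05 was called. Standard errors are the log2 fold change over the root of the F statistic. DESeq2 gave no adjusted p for 214 members.

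Members and lists (silencing, telomere capping, cell type markers) were chosen with earlier results of these data known. Insertions were named if they were the 12 with the most counts, the largest of a family, the 5 per direction with the smallest p without overlap, called by either tool, or in HeT-A or TART-A. Other families and genes named are examples of their lists. No sequences are shown.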

Additional observations from a re-analysis of the deposited data

How the results depend on the processing

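The count of members called was 0 with edgeR under TMM, both other normalizations, all 3 other filters and both other thresholds, 13 with DESeq2, 6 with its prior and 16 with the replicate block. It ranged from 0 to 9 with one library left out. The labels tie the replicate numbers to no shared source. Deviations of same-numbered libraries from the group means correlated at 0.128 (Pearson) and 0.149 (Spearman) across features, which does not settle whether the libraries are paired. Members higher at an unadjusted p under 0.05 numbered 10 with the DESeq2 prior, 30 with filterByExpr and 5 to 94 with one library left out; members lower numbered 41 with DESeq2, 36 with its prior and 17 to 67. Without overlap, 77 of the 591 members with 40 or more counts were above. With one library left out, an alternative chosen after seeing the data, 193 to 382 were above and 172 to 380 below. Leaving out a library makes separation without overlap easier by itself. These counts therefore cannot be compared with the 137 above and 133 below among all libraries. Shares of all features with a library left out are not given here. The median log2 fold change of DNA members was 0.41 with the replicate block and ran from -0.18 to 0.65 with one library left out, and that of LINE-like members from -0.35 to 0.30.

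With one library left out, log2 ratios of family sums ran from -3.42 to -0.85 for BS, 0.31 to 1.58 for Bari1, -0.19 to 0.32 for Cr1a, -1.27 to -0.43 for Doc, 0.33 to 1.68 for Doc2-element, -2.0002 to -0.77 for F-element, -2.70 to -0.60 for G2, -0.22 to 1.25 for G4, -0.42 to 0.12 for G5A, -0.44 to 0.92 for HB, -0.56 to 0.30 for HeT-A, -1.01 to 0.16 for Juan, -1.10 to 1.52 for Rt1a, -2.73 to -0.79 for Rt1b, -0.16 to 0.81 for Rt1c, -0.17 to 0.29 for S-element, -0.82 to 1.04 for Tc1-2, -2.40 to -0.68 for X-element, -0.36 to 0.15 for hobo, -1.95 to -0.55 for jockey and -0.30 to 0.97 for pogo. Those of TART-A ran from 1.47 to 2.14 and those of hopper from 1.29 to 2.13. Without its largest insertion the ratio was -0.53 for G2, 0.10 for G5A, -0.029 for Rt1b, 0.85 for Rt1c and -0.041 for Ivk. Without insertions sharing exon bases it was 0.10 for G5A and 0.061 for Ivk, and Ivk was at 0.041 with library totals. Signs turned with one library left out for H{}84 (-0.31 to 0.12), HeT-A{}6276 (-0.51 to 0.42), HeT-A{}6268 (-0.94 to 0.34) and HeT-A{}6262 (-0.73 to 0.36). The cause was not tested. Low counts limit the precision of the 351 members under 100 counts.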
